A study of Mus musculus with 25 samples.

Results

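A set of 9 homeobox genes that mark the mammillary region and its neighbours was followed across all arrays: the BarH-like genes Barhl1 and Barhl2, the empty spiracles gene Emx2, the paired-type gene Uncx and the Iroquois genes Irx1, Irx2, Irx3, Irx5 and Irx6. They were chosen by symbol, 9 of the 18820 named genes on the array, and where a gene had several transcript clusters (the probe sets of one gene) the brightest stood for it. Only Irx3 had a second cluster. Total RNA of the E10.5 mammillary neuroepithelium, the part of the caudal hypothalamic wall that gives rise to the mammillary body, had been hybridised to Affymetrix Mouse Gene 1.1 ST arrays, 1 array per sample. The groups were 13 Lhx5 mutant samples (labelled KO) and 12 wild-type samples (WT), all C57BL/6 and labelled as biological replicates. The mutant allele is Lhx5 fl/fl without any Cre, a hypomorph in which the loxP sites lie in introns and every exon is still present. Lhx5 itself therefore cannot check the labels here, and its level differed by -0.04 ± 0.17 between KO and WT on the log2 scale. Levels are log2 RMA values, so that a difference of 1 is a 2-fold change. Their precision is limited by the number of arrays.

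Homeobox genes encode transcription factors whose nested expression domains divide the early neural tube into territories. The BarH-like genes are expressed in the diencephalon and hypothalamus, with Barhl1 long known as a gene of the mammillary and subthalamic territories, and Uncx is expressed in early neurons of the diencephalon and midbrain. Emx2 patterns the dorsal telencephalon and is also expressed in the hypothalamus, whereas the Irx genes mark the territory behind the anterior forebrain and form a pair of clusters of neighbouring genes on separate chromosomes.

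The KO arrays did not form one set. The mean of KO replicates 1 to 10 equalled that of KO replicates 11 to 13 on every complete probe set (35550, within 0.001), a mark of an adjustment between sets that the sources used here do not state. Which set had been shifted was read from sex-linked genes (Xist, Eif2s3y, Kdm5d and Uty) in arrays of the same embryo sex. Their levels on KO replicates 11 to 13 lay within 0.684 of WT in all 8 comparisons, whereas those on KO replicates 1 to 10 lay 1.63 to 2.76 from WT. Female arrays numbered 2 among KO replicates 11 to 13, 3 among KO replicates 1 to 10 and 8 in WT. The male comparisons of KO replicates 11 to 13 thus rest on the remaining array, and the largest gap (Eif2s3y) was among them. KO replicates 11 to 13 were therefore treated as on the scale of WT. Each difference between KO and WT is on this reading the difference between 3 KO and 12 WT arrays, and KO replicates 1 to 10 add no evidence of its direction. They carry information on spread and on covariation only. The main fit held genotype and a term for KO replicates 1 to 10, and a standard error (SE) after a difference is that of this fit. A gene was called at an adjusted p below 0.05 (limma, Benjamini-Hochberg over 28940 clusters), and 7 clusters, or 0.0242%, were called. With genotype alone 16.7% were called, but that fit counts KO replicates 1 to 10 as if their mean were measured independently. For single genes an exact permutation test over the 455 splits of the 15 arrays into 3 and 12 was added (two-sided, smallest p 0.0022).

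Promoters were read from a table of RefSeq promoters (GRCm38.p6) that held 6 of the 9 members, from 250 bases before to 50 bases after a transcript start, because LHX5 belongs to the LIM-homeodomain family, whose members bind motifs with an ATTA core. The letters searched were TAATTA, which read the same on both strands. Of all 32851 promoters 5.29% held it. Of 7 promoters of 6 members (2 of Barhl1 and 1 each of Barhl2, Emx2, Irx2, Irx3 and Uncx), 3 did, the upstream one of Barhl1 and those of Emx2 and Uncx, a description with no test. They are shown with the motif in capitals, Barhl1 in full as the member with the largest difference, and Emx2 and Uncx as a window of 60 bases around the motif. In Barhl1 the motif begins 29 bases after the upstream one of its listed starts (chr2:28916619-28916918, minus strand). In Emx2 it begins 36 bases after the start (window chr19:59458680-59458739, plus strand). In Uncx there is a pair of matches, at -133 and -30 from the start, and the first is shown (window chr5:139543738-139543797, plus strand).
Barhl1: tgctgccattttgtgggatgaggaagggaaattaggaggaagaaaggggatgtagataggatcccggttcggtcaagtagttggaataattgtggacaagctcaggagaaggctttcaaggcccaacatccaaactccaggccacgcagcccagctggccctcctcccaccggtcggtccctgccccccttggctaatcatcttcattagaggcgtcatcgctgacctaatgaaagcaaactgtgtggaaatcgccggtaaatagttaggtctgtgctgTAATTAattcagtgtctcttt
Emx2: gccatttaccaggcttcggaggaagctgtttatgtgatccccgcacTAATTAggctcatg
Uncx: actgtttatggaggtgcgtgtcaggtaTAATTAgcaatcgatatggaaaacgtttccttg

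Of the 9 members 0 were called in the main fit, and 4 differences lay above and 5 below zero. Their median was -0.03, against 0.01 over all clusters. With genotype alone 1 member was called, Barhl1, against 16.7% of all clusters. An unadjusted p below 0.05 in the main fit was found for 1 member, against 10.3% of all clusters, and an exact permutation p below 0.05 for 1 member, against 10.2%. A count of 1 in 9 is near these shares, so it is no result about the members as a group. In both tests this member was again Barhl1, whose level is described next.

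Barhl1 (GRCm38.p6, chromosome 2, 28907680 to 28917984), a transcription factor gene of migrating neurons and of the mammillary territory, was the member with the largest difference. It stood at 6.35, 6.87 and 5.93 on KO replicates 11 to 13. On KO replicates 1 to 10 it ran from 5.54 over a median of 6.45 to 6.996, and in WT from 6.77 over 7.20 to 7.56. KO replicates 11 and 13 lay below every WT array, whereas KO replicate 12 lay inside the WT range. Also below every WT array were 8 of KO replicates 1 to 10. Their mean equals that of replicates 11 to 13, so that count is no further evidence of direction. Barhl1 was lower in KO by 1.73-fold, a log2 difference of -0.79 ± 0.22 (SE; 95% interval -1.24 to -0.34). This did not pass over all clusters in the main fit (limma, adjusted p = 0.179). It passed with genotype alone (3.44e-04), and the exact permutation p was 0.00440, unadjusted. In every setting tried, each array left out included, the difference stayed below zero, from -1.03 without KO replicate 12 to -0.56 without KO replicate 13. Leaving out any of KO replicates 1 to 10, or the term for them, cannot move this difference beyond rounding. Those settings therefore add no support for its direction.

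**Figure D1:**
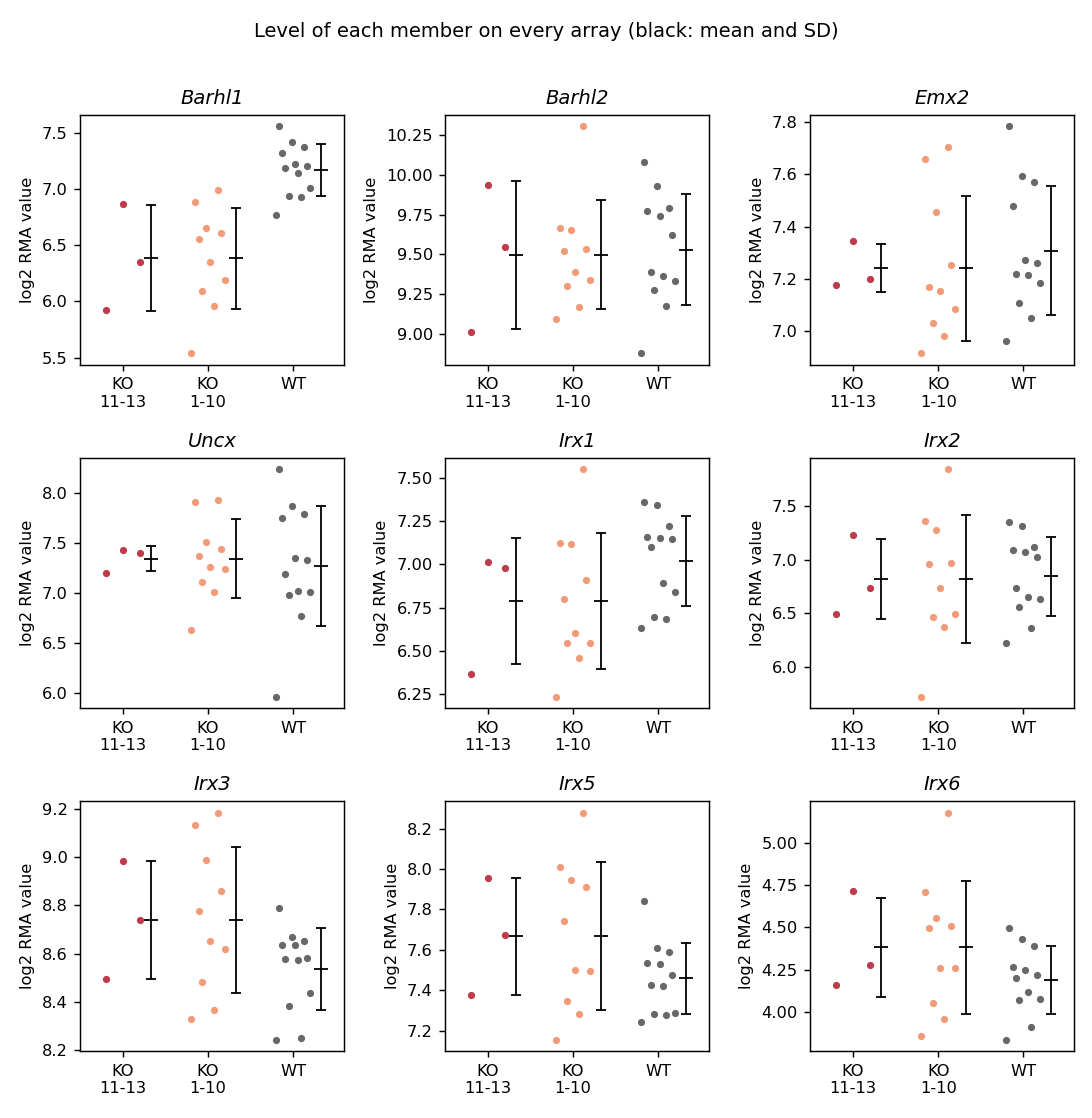
Log2 RMA value (y axis) of each member in KO replicates 11 to 13, KO replicates 1 to 10 and WT (x axis). Each point is 1 array and the black bars are the mean and SD of a set. Barhl1 lies lower on KO replicates 11 to 13 than in WT, with KO replicate 12 (6.87) inside the WT range, and the sets overlap for the other members. The mean of KO replicates 1 to 10 equals that of replicates 11 to 13 throughout.

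Barhl2 (chromosome 5, 106452523 to 106458166), its paralog, is expressed in overlapping diencephalic territories. It stood at 9.01, 9.94 and 9.55 on KO replicates 11 to 13. Across KO replicates 1 to 10 it ran from 9.10 over a median of 9.46 to 10.31, and in WT from 8.88 over 9.51 to 10.08. The 3 sets overlapped almost wholly. The difference was -0.03 ± 0.22 (interval -0.48 to 0.41, limma adjusted p = 0.974), and its sign depended on single arrays: it was 0.21 without KO replicate 11, 0.02 without WT replicate 1 and 0.0043 without WT replicate 3.

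Whether paralogs differed unequally was tested on their difference within each array, with KO replicates 11 to 13 set against WT. Barhl1 minus Barhl2 averaged -3.11 ± 0.48 on KO replicates 11 to 13 (SD, n = 3) and -2.36 ± 0.29 in WT (SD, n = 12). The gap between the sets, -0.76, gave an exact permutation p of 0.00659 and 0.0198 after adjustment over the 3 pairs tested. Of KO replicates 11 to 13, 2 lay below all WT arrays. So did 6 of KO replicates 1 to 10, whose mean equals that of replicates 11 to 13 and adds no evidence of direction. The pair no longer passed without KO replicate 12 (-0.78) or without KO replicate 13 (-0.51), at an adjusted exact p of 0.0989 each. Since Barhl1 was known to be low when the pairs were set, this is no independent evidence for it. Irx1 minus Irx2 differed by -0.21 (adjusted exact p = 0.415) and Irx3 minus Irx5 by -0.0039 (adjusted exact p = 0.958). Both of these Irx pairs join genes of the same chromosome. Irx pairs across the chromosomes were not tested, so equal change of all Irx paralogs is not shown.

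**Figure D2:**
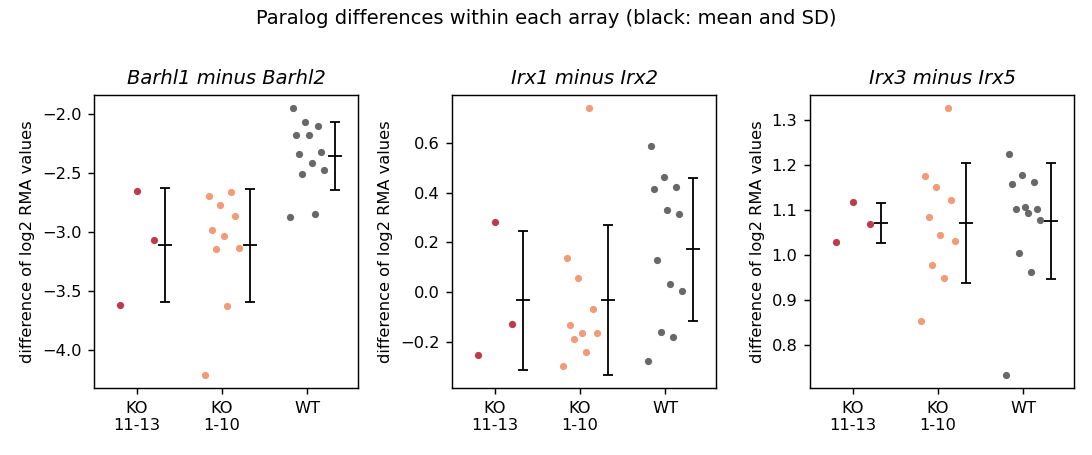
Difference between the log2 RMA values of 2 paralogs on the same array (y axis) in KO replicates 11 to 13, KO replicates 1 to 10 and WT (x axis), with the mean and SD of each set in black. Barhl1 minus Barhl2 averages -3.11 on KO replicates 11 to 13 and -2.36 in WT, and the other pairs overlap widely.

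Emx2 (chromosome 19, 59458690 to 59465357) stood at 7.18, 7.20 and 7.35 on KO replicates 11 to 13. In KO replicates 1 to 10 it ran from 6.91 over a median of 7.16 to 7.71, and in WT from 6.96 over 7.24 to 7.78. KO replicates 11 to 13 lay inside the WT range. The difference was -0.07 ± 0.15 (interval -0.38 to 0.25, limma adjusted p = 0.922), which bounds any change of Emx2 more closely than for most other members.

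Uncx (chromosome 5, 139543865 to 139548179) stood at 7.20, 7.43 and 7.41 on KO replicates 11 to 13. Levels on KO replicates 1 to 10 ran from 6.63 over a median of 7.32 to 7.94. The widest range of any member in WT was that of Uncx, from 5.96 over a median of 7.26 to 8.24, and its WT SD of 0.60 exceeded that of 99.2% of the named genes. On KO replicates 1 to 10 its SD was 0.39. The difference between KO and WT was 0.07 ± 0.30 (interval -0.54 to 0.69, limma adjusted p = 0.962), and -0.05 without WT replicate 11, the lowest array. These arrays leave room for a change of either sign within that interval.

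The Irx genes lie in a pair of groups, Irx1, Irx2 and Irx4 on chromosome 13 (71958232 to 73269622 from the first to the last) and Irx3, Irx5 and Irx6 on chromosome 8 (91798511 to 92680956). In the first group Irx1 stood at 6.37, 7.01 and 6.98 on KO replicates 11 to 13. On KO replicates 1 to 10 it ran from 6.23 over a median of 6.70 to 7.55, and in WT from 6.63 over 7.12 to 7.36. KO replicate 11 lay below every WT array, as did 5 of KO replicates 1 to 10, whose mean equals that of replicates 11 to 13. The difference was -0.23 ± 0.20 (interval -0.64 to 0.18, limma adjusted p = 0.740), and -0.02 without KO replicate 11. Irx2 stood at 6.49, 6.73 and 7.23 on KO replicates 11 to 13, and from 5.72 over 6.85 to 7.85 on KO replicates 1 to 10. In WT it ran from 6.22 over 6.88 to 7.36. Its sets overlapped, with a difference of -0.03 ± 0.29 (interval -0.62 to 0.57, limma adjusted p = 0.985) that turned positive without KO replicate 11 (0.14), KO replicate 12 (0.02), WT replicate 1 (0.02) or WT replicate 6 (0.02).

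In the group on chromosome 8 the 3 members had small differences above zero. Irx3 stood at 8.49, 8.74 and 8.98 on KO replicates 11 to 13. Across KO replicates 1 to 10 it ran from 8.33 over a median of 8.72 to 9.19, and in WT from 8.24 over 8.58 to 8.79. The difference was 0.20 ± 0.15 (interval -0.10 to 0.51, limma adjusted p = 0.678), and its second, dimmer cluster gave 0.20 ± 0.15 too. Irx5, which acts with Irx3 in heart and limb, stood at 7.38, 7.67 and 7.95 on KO replicates 11 to 13. In KO replicates 1 to 10 it ran from 7.15 over 7.62 to 8.28, and in WT from 7.24 over 7.45 to 7.84. For both genes KO replicate 13 lay above every WT array, as did 4 of KO replicates 1 to 10, whose mean equals that of replicates 11 to 13. The other KO arrays did not. The difference for Irx5 was 0.21 ± 0.17 (interval -0.14 to 0.56, limma adjusted p = 0.726). Without KO replicate 11 the exact permutation test gave p = 0.0330 for Irx3 (0.33) and 0.0220 for Irx5 (0.35), unadjusted, and so 3 members in place of 1. With all 15 arrays these were 0.110 and 0.127, and without KO replicate 13 they were 0.560 (0.08) and 0.670 (0.06). Irx6 lay below the median cluster level of 4.69 in most arrays, at 4.16, 4.28 and 4.72 on KO replicates 11 to 13. Levels on KO replicates 1 to 10 ran from 3.86 over 4.38 to 5.18, and in WT from 3.83 over 4.21 to 4.50, a difference of 0.20 ± 0.18 (limma adjusted p = 0.769) that was 0.029 without KO replicate 13 and 0.31 without KO replicate 11. Irx4, the sixth Irx gene and best known from the heart, lay below that level too in most arrays and differed by -0.07 ± 0.16 (limma adjusted p = 0.927).

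**Figure D3:**
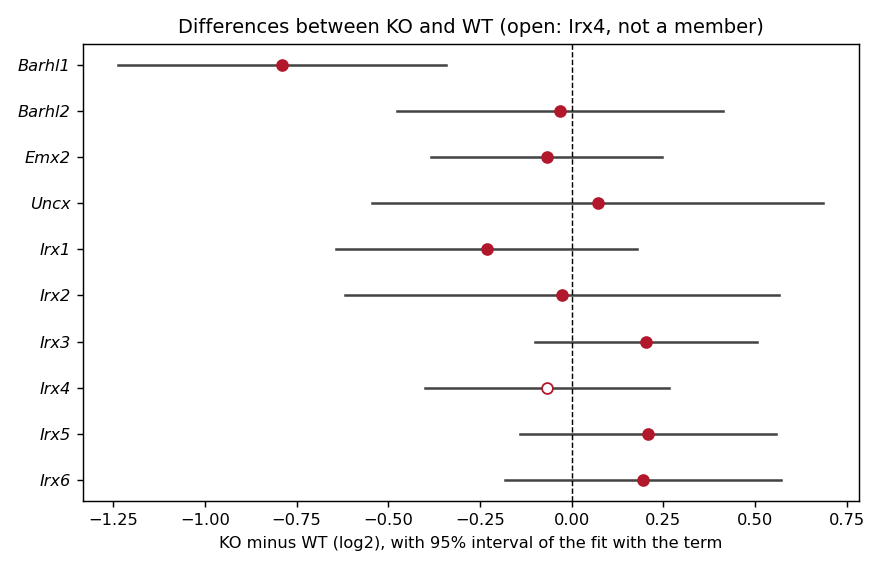
Difference between KO and WT (x axis, log2) for each member and for Irx4 (y axis), with the 95% interval of the fit with the term for KO replicates 1 to 10. Only the interval of Barhl1, from -1.24 to -0.34, lies wholly below zero, and the others span it.

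The groups also differed in how widely Irx levels were spread. The SD of KO replicates 1 to 10 over that of WT was 2.09 for Irx5, 1.97 for Irx6, 1.77 for Irx3, 1.63 for Irx2 and 1.52 for Irx1, against a median of 1.05 over all clusters. It was 1.94 for Barhl1, 1.13 for Emx2, 0.980 for Barhl2 and 0.652 for Uncx. These ratios were not tested, and since KO replicates 1 to 10 form a set of their own, set and genotype cannot be told apart in them.

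The 5 Irx members moved together from array to array. Irx4, which is not a member and lay near background, did not follow them. With Irx1 it had r = -0.02 on KO replicates 1 to 10 and -0.31 in WT, and with Irx2 0.06 and -0.51. On KO replicates 1 to 10 the 10 pairs of Irx members had Pearson correlations from 0.69 to 0.96 with a median of 0.88, and 9 of them passed after adjustment over all 72 correlations computed (36 pairs in each of 2 sets, permutation test). Spearman correlations gave 9 pairs as well, but 5 with embryo sex removed. The share of pairs of other genes that would pass was not computed, so this is not shown to be particular to the Irx genes. Irx1 and Irx5, on different chromosomes, had the closest relation (r = 0.96, rho = 0.93, permutation p = 1.0e-04, adjusted 0.00360), with r = 0.91 without the 2 farthest arrays. Irx3 and Irx5, neighbours on chromosome 8, reached r = 0.94 and rho = 0.94 (adjusted permutation p = 0.00360, r = 0.92 without the 2 farthest arrays). The pair that missed was Irx3 and Irx6 (r = 0.69, rho = 0.71, adjusted permutation p = 0.118). KO replicate 3 had the highest level of 4 of the 5 Irx members in its set, and KO replicate 1 the lowest of 3. Among KO replicates 11 to 13, replicate 11 was lowest for all 5.

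In WT the same 10 pairs ran from 0.25 to 0.72 with a median of 0.62, and 0 passed the adjustment by either correlation. With embryo sex removed Irx3 and Irx5 passed in WT by both (r = 0.82, adjusted permutation p = 0.0107, and rho = 0.78, adjusted 0.0463). Without the 2 farthest arrays the lowest of them was 0.05 in WT, against 0.55 on KO replicates 1 to 10. In WT, 6 of these pairs had an unadjusted permutation p below 0.05, led by Irx3 and Irx5 (r = 0.72, rho = 0.73, adjusted p = 0.0516). Whether the correlations differ between the sets was not tested.

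**Figure D4:**
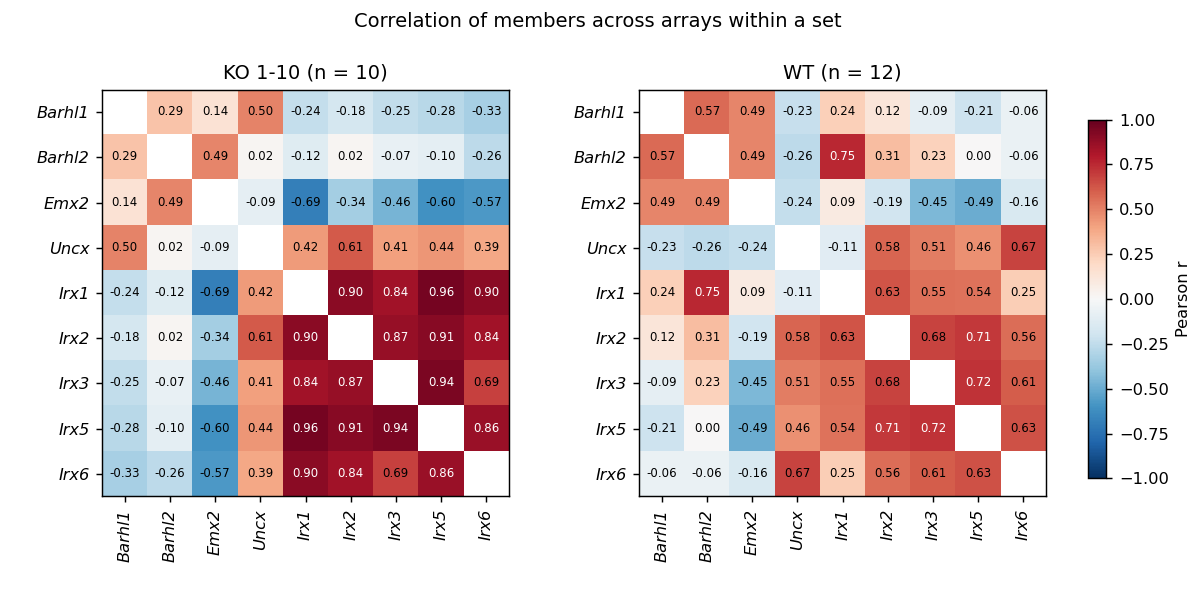
Pearson correlation of each pair of members across KO replicates 1 to 10 (left, n = 10) and WT (right, n = 12); both axes list the members and the colour runs from -1 to 1. The Irx block ranges from 0.69 to 0.96 on KO replicates 1 to 10 and from 0.25 to 0.72 in WT.

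Outside the Irx block 1 pair passed. Barhl2 and Irx1 covaried in WT (r = 0.75, rho = 0.72, permutation p = 0.00631, adjusted 0.0454), with r = 0.79 without the 2 farthest arrays, whereas the adjusted p of rho missed (0.0700). The same pair had r = -0.12 on KO replicates 1 to 10. Emx2 ran against the Irx genes on KO replicates 1 to 10, from r = -0.34 with Irx2 to -0.69 with Irx1, and none of these passed (adjusted permutation p = 0.118 for Irx1). In WT 4 of these 5 values lay below zero as well, down to -0.45 with Irx3 and -0.49 with Irx5 (rho = -0.65 and -0.66, adjusted permutation p = 0.109 each), and that with Irx1 was 0.09. Barhl1 and Barhl2 had r = 0.29 on KO replicates 1 to 10 and 0.57 in WT, neither past the adjustment. Uncx had positive values with all 5 Irx members on KO replicates 1 to 10, from 0.39 to 0.61, and with 4 of them in WT, of which the highest was 0.67 with Irx6 (adjusted permutation p = 0.0834, r = 0.39 without the 2 farthest arrays).

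**Figure D5:**
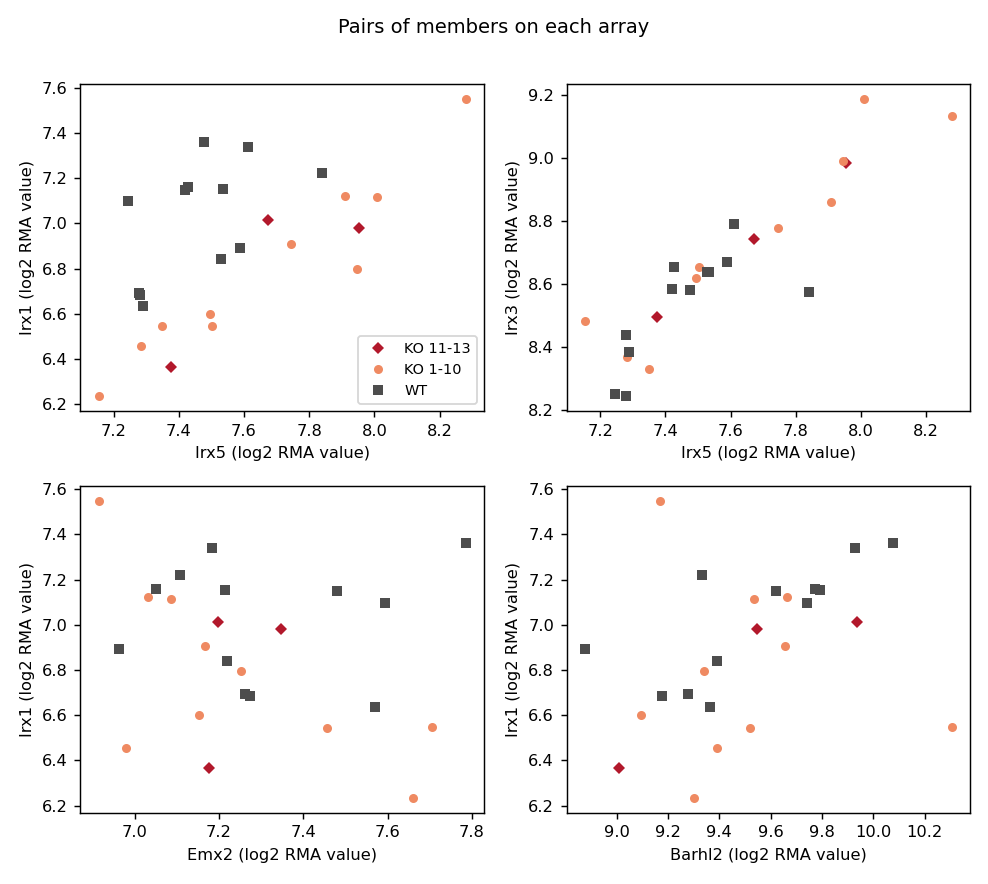
Log2 RMA values of 2 members on each array, with 1 member on each axis: Irx1 or Irx3 against Irx5 above, Irx1 against Emx2 and against Barhl2 below. On KO replicates 1 to 10 Irx1 rises with Irx5 (r = 0.96), and in WT Irx1 rises with Barhl2 (r = 0.75).

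In the plot of Irx1 against Irx5 most KO arrays lay below the WT arrays at a like level of Irx5. Irx1 minus Irx5, a pair chosen after its values were seen and so not tested, averaged -0.88 ± 0.19 on KO replicates 11 to 13 (SD, n = 3) and -0.88 ± 0.12 on KO replicates 1 to 10 (n = 10). In WT it averaged -0.44 ± 0.22 (n = 12). Of KO replicates 11 to 13, 2 lay below every WT array, as did all 10 of KO replicates 1 to 10. The mean of replicates 1 to 10 equals that of replicates 11 to 13, so their count is no further evidence of direction.

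For each member the genes with the most similar pattern were ranked by the mean of their correlations on KO replicates 1 to 10 and in WT, over 18814 genes. This is a description, since all genes on an array share its RNA sample. Uncx had the closest partners: Onecut3, Nrn1, Lhx1, Clvs2 and Dcx, each with a mean r from 0.93 to 0.94. Dcx encodes doublecortin, a microtubule protein of young neurons, and Lhx1 is a LIM-homeobox gene of postmitotic neurons. Irx2 was followed by Chrna5 (a nicotinic receptor subunit), Olfm1 and Cntfr, with mean r from 0.93 to 0.94. Irx3 ranked Irx5 first (0.83) with Irx2 as the fifth, and Irx5 ranked the retinoid-binding protein gene Crabp1 first (0.87) with Irx3 as the third. Other Irx members stood lower in some lists. Irx2 placed Irx5 at 33 and Irx6 at 135, and Irx1 placed Irx2 at 15 and Irx6 at 157. Irx6 placed Irx5 at 6 and Irx1 at 135. Irx1 was led by the Wnt target Lgr5 (0.88) and also had Pax7, a dorsal midbrain gene, among its 5 (0.84). Irx6 was led by Nckap5 (0.81).

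Among the partners of Barhl1 only Lmo1, a LIM-only gene, was itself lower in KO to a like extent. It was second for Barhl1 (r = 0.64 on KO replicates 1 to 10 and 0.87 in WT) and its own difference was -0.74 ± 0.21 (limma adjusted p = 0.179 in the main fit, 3.85e-04 with genotype alone). Bmper led the list (mean r = 0.77) and lay near background. Barhl2 was led by Map7 (0.81) and also had Wnt3 among its 5 (0.78). Emx2 had Lhx5, the targeted gene, among its 5 (r = 0.78 on KO replicates 1 to 10 and 0.69 in WT), behind Hoxc6 and Olfr830, both of which lay below the median cluster level.

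The nearest tested genes on each side of the members were read as well, up to 2 per side, 25 genes that are not members themselves. In the main fit 0 of them were called and with genotype alone 8, of which 4 were lower and 4 higher. The 4 lower ones were Cfap77, Gtf3c4 and Ddx31 beside Barhl1 and Zfp326 beside Barhl2. Genotype alone called 16.7% of all clusters and counts the mean of KO replicates 1 to 10 as if measured independently. Cfap77, a cilium gene next to Barhl1, stood from 4.68 to 5.40 on KO replicates 11 to 13, from 4.83 to 5.42 on KO replicates 1 to 10 and from 5.27 to 6.62 in WT. Its difference of -0.72 ± 0.21 (limma adjusted p = 0.212, 6.18e-04 with genotype alone) was close in size to that of Barhl1, but across arrays they had r = -0.14 on KO replicates 1 to 10 and 0.43 in WT. Gtf3c4 and Ddx31, on the other side of Barhl1, differed by -0.16 ± 0.08 and -0.19 ± 0.10. Micall2, next to Uncx, stood from 6.49 to 6.61 on KO replicates 11 to 13, all 3 above every WT array (6.16 to 6.44). Its difference was 0.23 ± 0.14 (limma adjusted p = 0.599, exact permutation p = 0.0044, unadjusted). Such an exact p below 0.05 was found for 10.2% of all clusters. Crnde, a long noncoding RNA between Irx3 and Irx5, stood at 6.72, 7.10 and 7.15 on KO replicates 11 to 13. On KO replicates 1 to 10 it ran from 6.56 to 7.56 and in WT from 5.78 to 6.93, a difference of 0.33 ± 0.19 (limma adjusted p = 0.565, 0.0468 with genotype alone). It followed Irx5 with r = 0.92 on KO replicates 1 to 10 and 0.67 in WT. Fto and Rpgrip1l, on the far side of Irx3, differed by 0.04 ± 0.06 and -0.02 ± 0.06.

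Lists of regulators of the neighbouring territories were counted beside the members. Over all 16 lists, with 128 measured entries in total, the main fit called 0 higher and 0 lower. Pax6 is an entry of both the telencephalon and the neural progenitor list and counts in each. Calls with genotype alone are given too, and that fit called 16.7% of all clusters. Of 7 genes listed for the anterior forebrain, in front of the Irx territory, all 7 had lower means in KO (median -0.84). With genotype alone all 7 were called lower. Hesx1 (2.92 in KO and 3.29 in WT) and Lhx3 (3.46 and 4.06) lay close to background. The 3 with the smallest p were the eye field genes Six3 (-1.06 ± 0.29) and Rax (-1.27 ± 0.39) and Vax1 (-0.80 ± 0.30). Several of these genes were known to be lower when the list was set, so its count is no independent evidence. Of 13 mammillary regulators 11 had lower means (median -0.30), with the smallest p for Foxb2 (-1.13 ± 0.21), Nkx2-4 (-0.72 ± 0.20) and Tbx3 (-1.10 ± 0.41). The largest difference of that list was that of Otp (-1.28 ± 0.55), and genotype alone called 4 lower and 0 higher. Several mammillary regulators too were known to be lower when the list was set, so this count is no independent evidence either. Of 6 measured retromammillary and subthalamic regulators 4 had higher means (median 0.18), led by Lmx1b (0.34 ± 0.13), Foxa1 (0.47 ± 0.20) and Foxa2 (0.40 ± 0.23), which are the 3 that genotype alone called. The 15 caudal diencephalon regulators were split into 6 higher and 9 lower (median -0.08), the 10 midbrain and isthmus genes into 4 and 6 (median -0.10) and the 6 paraventricular genes into 3 and 3 (median 0.0026). Of 9 telencephalon genes 7 had lower means (median -0.36), and of 7 proneural genes 5 (median -0.18).

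The mean level of each list was also correlated with that of Barhl1, Barhl2, Emx2, Uncx, Irx3 and Irx5 in both sets, 192 correlations, and 0 passed the adjustment (lowest adjusted permutation p 0.102). Barhl1 followed the mammillary regulators with r = 0.82 and rho = 0.85 on KO replicates 1 to 10 (permutation p = 0.00312, adjusted 0.116, r = 0.71 without the 2 farthest arrays) and with r = 0.60 in WT, which was 0.22 without the 2 farthest arrays. Uncx followed the caudal diencephalon regulators with r = 0.87 and rho = 0.89 on KO replicates 1 to 10 (permutation p = 9.2e-04, adjusted 0.102).

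Markers of other tissues in the dissected piece are given beside the members, and none was called in the main fit. Genotype alone called 2 endothelial, 2 surface ectoderm and 1 mesenchyme marker and 1 hindbrain Hox gene higher, and 2 neural progenitor markers lower. That fit called 16.7% of all clusters. All 6 measured erythroid markers had higher means in KO (median 0.31), and their mean level ran from 8.95 to 9.40 on KO replicates 11 to 13, from 8.15 to 9.70 on KO replicates 1 to 10 and from 8.50 to 9.70 in WT. All 8 mesenchyme markers had higher means in KO (median 0.15, from 7.71 to 8.24, from 7.41 to 8.37 and from 7.26 to 8.08 in the same order), as did all 6 endothelial markers (median 0.11), 6 of 7 surface ectoderm markers (median 0.22), 5 of 6 macrophage markers (median 0.08) and 4 of 7 somite and paraxial mesoderm markers (median 0.14). All 7 neural progenitor markers had lower means in KO (median -0.18, from 9.58 to 9.81 on KO replicates 11 to 13, from 9.07 to 9.98 on KO replicates 1 to 10 and from 9.51 to 10.35 in WT). Irx3 ran against the mesenchyme markers on KO replicates 1 to 10, with r = -0.84 and rho = -0.82 (permutation p = 0.00190, adjusted 0.102, r = -0.67 without the 2 farthest arrays), whereas in WT it had r = 0.28 and rho = 0.17. With the endothelial markers Irx3 had r = -0.84 on KO replicates 1 to 10 and 0.53 in WT. The part of these tissues in the members' values was not tested, and in bulk tissue fewer cells of a type and less RNA per cell cannot be told apart. Hindbrain Hox genes lay near background in all sets (means from 3.12 to 3.32). The mammillary markers Foxb1, Sim1, Sim2 and Nkx2-1 were all measured well above the median cluster level, at 6.57, 8.57, 7.66 and 7.49 in KO and 6.73, 8.24, 7.75 and 7.82 in WT.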

How the data were processed

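The authors hybridised RNA of 25 samples and deposited 1 table of log2 values for 35556 probe sets, made by robust multiarray averaging (RMA) with Affymetrix Expression Console 1.0 and affy in R 2.7.0 per the labels. In 11 of its deposited columns, 14 cells in all lay outside the RMA scale (32.32 to 10464), for which the unit of these columns is recorded as a score. These cells were set missing, and none belonged to a member. After 6616 unannotated probe sets were left out, 28940 transcript clusters entered a limma model (3.58.1, under R 4.3.3) of genotype plus a term for KO replicates 1 to 10, with Benjamini-Hochberg adjustment and a threshold of 0.05. Genes were placed through Entrez numbers on GRCm38.p6 (21185 clusters matched). Correlations used 100000 permutations (SciPy 1.17.1), and the figures matplotlib 3.10.9. The members, gene lists and paralog pairs were chosen with earlier results of these data known. Named genes are the members, Irx4, Lhx5, up to 3 genes per list with the smallest p, the 2 nearest genes on each side and the 5 most similar genes per member. Foxb1, Sim1, Sim2 and Nkx2-1 are named as the mammillary markers set for checking the tissue, and the sex-linked genes for comparing the KO sets. Otp, Hesx1 and Lhx3 were chosen after their values were seen. In simulated data with equal KO set means the fit with the term found 85 of 100 at a built-in 1.5-fold change and 97 of 100 at 2-fold. It gave 15 false calls and genotype alone 1854 over the 28940 clusters. Simulated errors were independent between clusters, and the changed clusters were drawn from all clusters. These counts are not the power for the members, whose WT SDs exceeded those of 68.3% (Irx3) to 99.2% (Uncx) of the named genes. A pairing by replicate number was examined and stands with the other settings. The labels do not say whether replicates came from separate litters, so p-values measure the spread between these samples.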

Additional observations from a re-analysis of the deposited data

Results flagged for a closer look

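In the set of KO replicates 1 to 10, 2 genes had an array that stood far from the rest. Chance flags about 1 in 20 such sets. Barhl2 on KO replicate 6 (10.31) was separated from the next array by 0.532 of the range of the set. Irx4 on KO replicate 8 (4.90) was separated by 0.537 of the range. The levels of the other Irx genes on KO replicate 8 were not the highest of the set.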

How the results depend on the processing

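With the term for KO replicates 1 to 10, 0 members were called in any setting. Genotype alone called 1, Barhl1 (-0.79, adjusted p = 3.44e-04), and 4825 clusters in place of 7. The adjusted p of Barhl1 ran from 0.107 to 0.719 as each array was left out. Counts of called clusters moved to 1 with repeated quantile normalization, 12 with arrays centred on their medians, 4 without dim clusters and 30 with array weights. They ran from 0 to 26 with 1 array left out: 0 without KO replicate 13, 4 without WT replicate 1, 11 without KO replicate 7, 17 without KO replicate 11, 19 without KO replicate 3, 8 or 12 and 26 without WT replicate 10.

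The labels' replicate numbers give no pairing here: correlations of same-numbered arrays passed 0.1 for 4 of 12 numbers, and 0 KO arrays correlated best with their own number. With the replicate block 0 clusters were called beside the term, and 3637 clusters and 1 member (Barhl1, -0.75) with genotype alone. Beside the term the block gave -0.018 for Irx5, 0.076 for Irx4, 0.67 for Uncx, -0.47 for Irx1 and 0.047 for Irx6.

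Near zero, signs were not stable. Barhl2 ran from -0.25 to 0.21 with 1 array left out, Irx2 from -0.23 to 0.14, Uncx from -0.048 to 0.16 and Irx4 from -0.15 to 0.019. Irx6 stayed above zero, from 0.029 to 0.31. Repeated quantile normalization gave 0.0012 for Irx2. The exact permutation test found 1 to 3 members with 1 array left out, 3 without KO replicate 11. Barhl1 minus Barhl2 ran from -0.99 to -0.51, Irx1 minus Irx2 from -0.36 to -0.10 and Irx3 minus Irx5 from -0.035 to 0.017, a setting added after the data were seen. With embryo sex removed, 2 Pearson correlations passed in WT in place of 1, the added one being Irx3 and Irx5. Among those on KO replicates 1 to 10, 9 passed again, but by Spearman 5 in place of 9 (8 with arrays centred). The causes were not tested. With 3 KO arrays behind each difference, intervals reach up to 0.69, so that members not called are not shown to be unchanged. RMA values near 4 lie close to background.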
